A study of Drosophila melanogaster with 2 samples.

Results

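Divergent promoters, where a gene on each strand starts from nearly the same place, carried 761 of the 2980 promoter summits of the fly transcription factor Onecut, or 25.5% (95% Wilson interval 24.0 to 27.1). A peak's summit is the base the authors' peak list gives as its highest point. A member is a summit on arm 2L, 2R, 3L, 3R, 4 or X that lay at most 500 bp from a plus-strand transcription start (TSS) of one protein-coding gene and at most 500 bp from a minus-strand TSS of another. The members made up 11.3% of the 6747 summits on these arms. Another 2219 summits lay within 500 bp of TSSs of one strand only (one-strand promoters below), and 3767 lay at no protein-coding promoter. The study measured Onecut binding by ChIP-seq in whole Drosophila melanogaster embryos aged 0 to 24 h that carry an onecut-eGFP fusion transgene, with an antibody against GFP. It has 2 biological replicates of 1 group, both from one transgenic strain, and no group without the transgene was analysed here. Whole embryos of this age span were used, so a summit cannot be tied to a cell type. Each peak has the authors' signal value, whose scale is not given and is called signal units here, and the read depth behind it is unknown. Peaks are not replicates of a condition, so intervals on shares of peaks cover counting error only, and the list of each replicate alone gives the repeat.

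Onecut is the only fly member of the ONECUT family, which joins a cut domain to a homeodomain and is known for its part in neurons. Proteins of this family bind ATCGAT and ATTGAT, called the Onecut core here. Head-to-head gene pairs are common in the compact fly genome and often join housekeeping genes, whose promoters tend to lack a TATA box. Many of those promoters instead carry the DNA replication-related element TATCGATA, bound by DREF, clusters of CGATA, bound by the insulator protein BEAF-32, or Motif 1, GGTCACACT, bound by M1BP. The letters of these elements overlap: TATCGATA holds both ATCGAT and CGATA, so a promoter with the DREF element also counts for the Onecut core and for the BEAF-32 core.

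The sequences below show the spacers of strong members, with and without a core, because the members split on this feature. Each is the longest stretch within 120 bp of the summit that no annotated exon covers, read on the plus strand of the Release 6 (dm6) genome from RefSeq, and capitals mark the Onecut core, the DREF element and Motif 1 on either strand. A pair is written with the plus-strand gene first. The first 8 are the members of highest signal outside the arm that is not shown, and the last 2 were chosen after their values were seen.
Dhpr/bol, chr3L:9134426-9134559: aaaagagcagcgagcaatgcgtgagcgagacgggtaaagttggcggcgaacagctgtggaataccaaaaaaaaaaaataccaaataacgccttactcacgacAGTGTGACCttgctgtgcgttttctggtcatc
CG6454/CG5746, chr3R:24348792-24348917: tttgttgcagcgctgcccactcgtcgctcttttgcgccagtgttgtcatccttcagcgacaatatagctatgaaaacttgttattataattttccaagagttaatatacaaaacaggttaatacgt
VhaM9.7-a/CG11586, chr3L:4262577-4262704: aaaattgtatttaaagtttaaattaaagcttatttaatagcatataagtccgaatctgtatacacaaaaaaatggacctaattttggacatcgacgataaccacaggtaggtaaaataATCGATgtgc
CIA30/CG7601, chr3R:29736746-29736964: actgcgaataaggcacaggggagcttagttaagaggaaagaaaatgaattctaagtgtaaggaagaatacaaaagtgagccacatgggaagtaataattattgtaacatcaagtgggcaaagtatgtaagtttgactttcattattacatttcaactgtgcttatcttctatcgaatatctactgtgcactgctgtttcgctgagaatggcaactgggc
CG1951/eIF4E6, chr3R:29027175-29027235: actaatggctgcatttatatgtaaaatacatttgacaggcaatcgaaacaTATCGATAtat
lap/CG10055, chr3R:7186904-7186993: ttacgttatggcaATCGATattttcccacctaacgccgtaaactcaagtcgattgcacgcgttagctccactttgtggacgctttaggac
CenG1A/mRpS23, chr2L:13835348-13835563: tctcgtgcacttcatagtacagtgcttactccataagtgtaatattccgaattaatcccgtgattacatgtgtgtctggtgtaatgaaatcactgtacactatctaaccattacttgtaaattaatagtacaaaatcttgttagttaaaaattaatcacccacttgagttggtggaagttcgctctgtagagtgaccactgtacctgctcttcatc
mRpS10/Art3, chr3R:15229409-15229639: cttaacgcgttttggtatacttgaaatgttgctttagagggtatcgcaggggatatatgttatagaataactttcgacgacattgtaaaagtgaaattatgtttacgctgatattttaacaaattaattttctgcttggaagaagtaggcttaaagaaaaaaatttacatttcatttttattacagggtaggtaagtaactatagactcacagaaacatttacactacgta
Appl/CG4293, chrX:530292-530500: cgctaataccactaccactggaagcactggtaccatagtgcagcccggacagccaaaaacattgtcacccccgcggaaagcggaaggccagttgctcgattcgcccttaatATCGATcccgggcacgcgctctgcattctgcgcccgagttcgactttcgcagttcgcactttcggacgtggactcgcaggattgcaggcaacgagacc
RpL7/Ripalpha, chr2L:10200975-10201003: cccactccgcggccAGTGTGACCgtttgg

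In the VhaM9.7-a/CG11586 stretch the summit is base 121 and the core covers bases 119 to 124. In Appl/CG4293 the summit is base 113 and the core covers bases 112 to 117. In Dhpr/bol the summit is base 121 and Motif 1, here on the minus strand, covers bases 103 to 111. The CIA30/CG7601, CenG1A/mRpS23 and mRpS10/Art3 stretches hold none of the marked elements, although their summits lie inside the printed sequence at bases 103, 121 and 111. The summits of CG1951/eIF4E6, lap/CG10055 and RpL7/Ripalpha lie in an annotated exon just outside the printed stretch, and the core copies that Dhpr/bol and CG6454/CG5746 have within 50 bp of the summit also lie in exons and are not printed. Marked sites are not always the counted ones: the ATCGAT printed for lap/CG10055 lies 105 bp from the summit, beyond the 50-bp window, and the core counted for this pair is not in the printed stretch. Motif 1 of RpL7/Ripalpha is 59 bp from the summit and is not counted either.

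In the annotation the genes were truly divergent at 735 of the 761 members (96.6%): the minus-strand TSS lay to the left of the plus-strand TSS and the genes point away from each other. At the other 26 members the 5′ ends overlapped. A promoter window of 250 bp in place of 500 bp gave 432 members, and one of 1000 bp gave 1147. The members came from 705 distinct gene pairs and 1406 genes, of which 433 (30.8%) have only a CG number as a name. One qualifying pair was in reach at 724 members and more than one at 37. The extreme was a summit at the mod(mdg4) locus, where 21 pairings qualified because the annotation lists the trans-spliced pieces of this one gene as separate genes on both strands. By arm, members were 30.5% of the promoter summits on 3R (226 of 740), 26.8% on 2L (148 of 552), 25.2% on 3L (152 of 603), 24.4% on 2R (150 of 616), 18.4% on X (82 of 445) and 12.5% on 4 (3 of 24). The share of divergent promoters on each arm is not set beside these values. They therefore do not show whether Onecut favours such promoters more on one arm than on another.

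Summits lay mostly in the spacer between the pair of start sites. Of the 735 head-to-head members, 541 (73.6%, 70.3 to 76.7) had the summit between the TSSs, 90 had it inside the plus-strand gene and 104 inside the minus-strand gene. The spacer held more summits than its length alone would give: it made up 38.1% of the bases within 500 bp of both TSSs and held 65.3% of the summits there, counting the closest TSSs of each pair. This came to 779 summits per Mb in spacers and 255 per Mb in the rest of the zone, a ratio of 3.06. One-strand promoters had 162 summits per Mb, and the whole of the arms had 50.4. The plus-strand gene was the nearer at 390 members, the minus-strand gene at 369, and 2 summits were equally far from both. The plus-strand share of 51.2% has an interval that includes 50% (47.7 to 54.8).

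**Figure D1:**
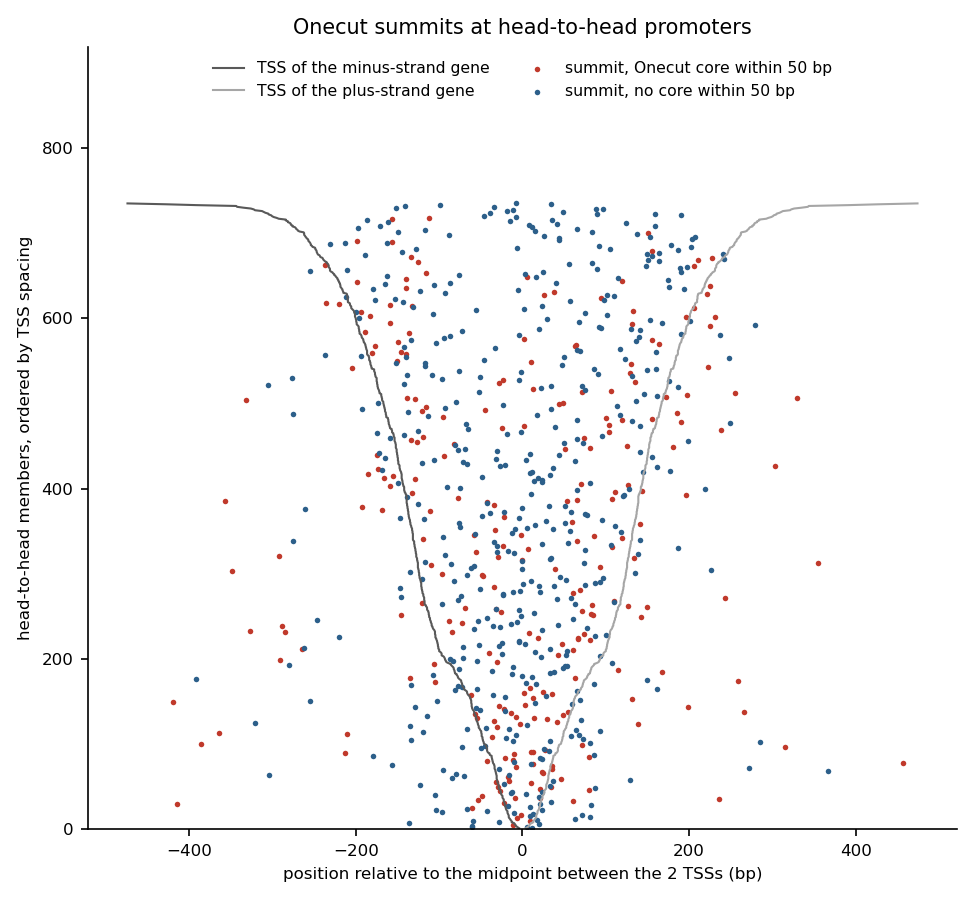
Summit position (x axis, bp from the midpoint between the TSSs) at the 735 head-to-head members, ordered by TSS spacing on the y axis. Lines mark the start sites, red points are summits with a Onecut core within 50 bp and blue points summits without one. Most points lie between the lines, and many red points follow them.

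Pooled over all spacers, the share of summits in the central part was close to that of an even spread. Members lay a median of 58 bp from the nearer TSS (order-statistic interval 53 to 65) and 221 bp from the farther one. One-strand summits lay a median of 126 bp from their nearest TSS (118 to 136), but a summit with start sites on both strands has more chances of lying near one, and the comparison does not correct for that. The summit was upstream of its nearer TSS at 73.5% of members and at 63.3% of one-strand promoters. Among the 541 summits in a spacer, the distance to the nearer TSS was a median 24.6% of the spacing. At 178 of them (32.9%, 29.1 to 37.0) the summit was at least 33.3% of the spacing away from both TSSs, the share that an even spread would give. This pools unlike groups, with 43 of 173 summits with a core and 135 of 368 without. At a spacing of 300 bp or more the share was 28.0% (22.9 to 33.8, n = 257). In spacers wider than 500 bp the rule itself leaves out positions near either TSS.

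The TSSs of head-to-head members were a median of 273 bp apart (263 to 281), with quartiles of 162.5 and 368 bp and a range of 8 to 948 bp. Among the closest pairs were CG17260/SerRS at 8 bp and Mt2/CG6712 at 14 bp, where SerRS encodes seryl-tRNA synthetase and Mt2 an RNA methyltransferase. The widest were CG13058/CG13038 at 948 bp, CG42784/CG16956 at 856 bp and CG33229/pyx at 783 bp, where pyx encodes a TRP channel. Spacing and signal were hardly related across the members (Spearman −0.05, n = 735, pairs sharing the same libraries).

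Most head-to-head gene pairs of the genome had no member summit. The annotation holds 2667 such pairs of protein-coding genes with TSSs at most 1000 bp apart, and 742 of them, the 27.8% that is the background for the counts below, had a summit in reach of both TSSs. This exceeds the 705 pairs above because a summit can reach several pairs. With the stronger 50% of peaks only, the share of pairs was 16.3%. Of the other 1925 pairs, 898 had at least one peak in a replicate's longer ranked list. The share with a summit was 35.2% at a spacing of 1 to 100 bp, 31.1% above 100 to 200 bp, 40.2% above 200 to 300 bp and 39.3% above 300 to 400 bp. It was 23.6% above 400 to 500 bp, 10.5% above 500 to 700 bp and 1.29% above 700 to 1000 bp. Wider pairs leave fewer bases within 500 bp of both TSSs, and per kb of such sequence the highest value was at a spacing above 300 to 400 bp, with 0.645 summits per kb, against 0.395 at 1 to 100 bp and 0.0801 above 700 to 1000 bp. The intervals above 200 to 300 bp (36.2 to 44.4%) and above 300 to 400 bp (34.6 to 44.1%) overlapped each other, and both lay clear of the next class (18.9 to 29.0%).

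**Figure D2:**
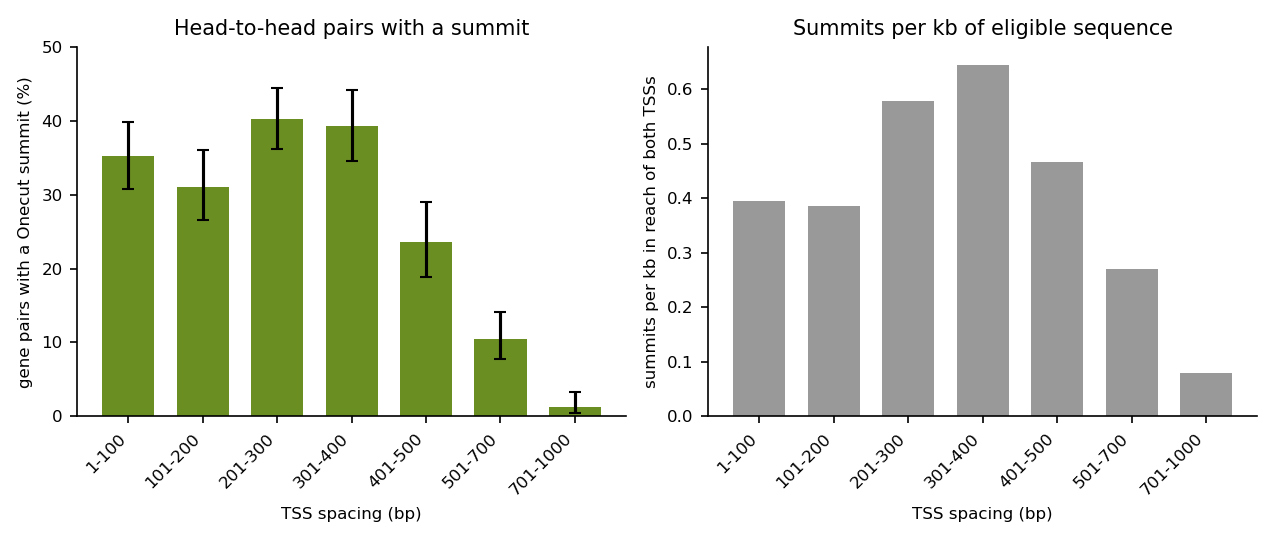
Left, share of annotated head-to-head gene pairs with a Onecut summit in reach of both TSSs, by TSS spacing in bp, with 95% Wilson intervals. Right, the same summits per kb of sequence within 500 bp of both TSSs. Both are highest between 200 and 400 bp and lowest above 700 bp.

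Counted over genes, 36.2% of the 5052 genes in head-to-head pairs had a Onecut summit within 500 bp of a TSS, compared with 16.1% of the 8893 other protein-coding genes and 23.4% of all 13945. A gene in a pair can also be counted through its partner's side of the spacer, which the difference includes. A member summit lay at 1394 of the 5052 paired genes, or 27.6%, the base rate for the gene lists below.

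Signal at divergent promoters was close to that at other promoters. Member signal had a median of 163 units (155 to 171) and ran between 18.4 and 2668, against a median of 160 (154 to 166) at one-strand promoters and 149 over all summits. The ratio of the medians, members over one-strand, was 1.02, and it was 1.00 in the list of replicate 1 alone and 1.03 in that of replicate 2. Among members, 12.2% (10.1 to 14.7) were in the top 10% of all summits by signal, compared with 13.9% (12.5 to 15.4) of one-strand summits. The windows reaching 50 bp to each side of the summit were poorer in GC at members, with a median of 39.6%, against 43.6% at one-strand promoters.

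The members come from a list thresholded by reproducibility between the same 2 replicates, so the values that follow describe peaks already selected for it. A peak of the thresholded list of replicate 1 overlapped 574 members (75.4%), one of replicate 2 overlapped 601 (79.0%), and 502 (66.0%) were in both, beside 66.1% of one-strand summits. The longer ranked lists held 750 and 755 members. Across the 744 members in both ranked lists the signals had a Spearman correlation of 0.856, as a description of peaks from the same 2 libraries. Signal was higher in replicate 2 at 555 of the 744, with a median ratio of replicate 2 to replicate 1 of 1.22 (1.19 to 1.25), against 1.31 (1.29 to 1.34) at one-strand promoters. A replicate's value is the strongest ranked peak that overlaps the member by 1 bp, so 2 summits of one pair can share it, as 82 members did in each replicate.

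The member of highest signal was Dhpr/bol on 3L, at 2668 units, with 1006 in replicate 1 and 1662.5 in replicate 2. Dhpr encodes dihydropteridine reductase, which recycles a cofactor of aromatic amino acid hydroxylation, and bol encodes Boule, an RNA-binding protein of the male germ line. Its summit lay 14 bp from the Dhpr TSS and 141 bp from the bol TSS, in a spacer of 155 bp, with an ATTGAT core and Motif 1 in the window. CG30466/Flo1 on 2R followed at 2373.5 units (1001 and 1394 in replicates 1 and 2) and was the only one of the 20 strongest members whose 5′ ends overlap. Flo1 encodes flotillin-1, a membrane microdomain protein. CG6454/CG5746 reached 2045.5 units (863 and 1189), its summit 6 bp from the CG5746 TSS. VhaM9.7-a/CG11586, which starts a proton pump subunit gene, reached 1674 units (592 and 1059), with the summit 8 bp from the VhaM9.7-a TSS and on an ATCGAT.

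The 20 strongest members divided evenly on the core, and the groups with and without it differed in composition and between the replicates. The core lay within 50 bp of the summit at 10 of them. Windows of these 10 had 34.7 to 61.4% GC and ratios of replicate 2 to replicate 1 of 1.199 to 1.85. Windows of the 10 without a core had 20.8 to 32.7% GC and ratios of 0.797 to 1.21. The GC ranges did not overlap, and the ratio ranges overlapped only between 1.199 and 1.21. The GC content cannot be separated from the presence of the core in these 20, and its part in the ratio was not tested.

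The strongest member without a core was CIA30/CG7601 on 3R, at 1564 units, with 877 in replicate 1 and 699 in replicate 2. CIA30 encodes an assembly factor of mitochondrial complex I. Its summit lay 103 bp from one TSS and 117 bp from the other, near the middle of a 220-bp spacer. mRpS10/Art3 (1432 units, 792 and 647 in replicates 1 and 2) and CHMP2B/Tcs5 (1307 units, 685 and 630) also had their summits near the middle of spacers of 257 and 224 bp. mRpS10 encodes a mitochondrial ribosomal protein, Art3 an arginine methyltransferase, CHMP2B an ESCRT-III subunit and Tcs5 a tRNA modification factor. In these 3 the signal was lower in replicate 2, and over the 10 without a core it was lower in replicate 2 at 5 and higher at 5. CG9147/Fbw5 (1427 units, 716 and 714 in replicates 1 and 2), also without a core, had its summit 1 bp from the CG9147 TSS. The others without a core were CG17294/CG13390, Mtl/CG5611, CG3552/CG3437 and CG7632/CG11309, between 1088 and 1160 units. The amyloid precursor-like gene Appl, expressed in neurons, stood at the other end: Appl/CG4293 on X had 1138 units, with 398 in replicate 1 and 736 in replicate 2, an ATCGAT at the summit and 61.4% GC. Ssl1/Chro (1275 units), which pairs a TFIIH subunit with the chromatin protein Chromator, had no core, and HisCl1/prd1 (1312.5 units), which includes a histamine-gated chloride channel, had an ATTGAT and a summit 18 bp from the prd1 TSS.

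The difference in the replicate ratio was also seen over all members, while the GC ranges overlapped widely there. Over all members the median GC content was 41.1% with a core (range 15.8 to 61.4%) and 37.6% without (14.9 to 64.4%). With a core, the median ratio of replicate 2 to replicate 1 was 1.37 (1.30 to 1.42, n = 267), and without one it was 1.16 (1.12 to 1.19, n = 477). Signal was higher in replicate 2 at 86.9% of the members with a core and at 67.7% of those without. In the top 25% of members by signal the medians were 1.46 with a core and 1.05 without. One-strand promoters showed it too, at 1.48 with a core and 1.21 without. Within bands of GC content the medians with and without a core were 1.15 and 1.12 in the lowest band of members, 1.52 and 1.07 in the next, 1.39 and 1.23 in the one above, and 1.38 and 1.25 in the highest, the bands being cut at the quartiles of members' GC. Among members, only in the band next to the lowest were the intervals with and without a core apart (1.34 to 1.61 and 1.00 to 1.18). In the members' other bands they overlapped. At one-strand promoters, split at the same GC limits, they overlapped in the lowest band only (1.122 to 1.373 and 1.085 to 1.173). In the next band they were 1.379 to 1.597 with a core and 1.045 to 1.135 without. They were 1.470 to 1.546 and 1.199 to 1.313 in the one above, and 1.441 to 1.525 and 1.272 to 1.373 in the highest. The replicates are separate embryo samples with otherwise equal labels, and the source of the ratio was not tested.

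**Figure D3:**
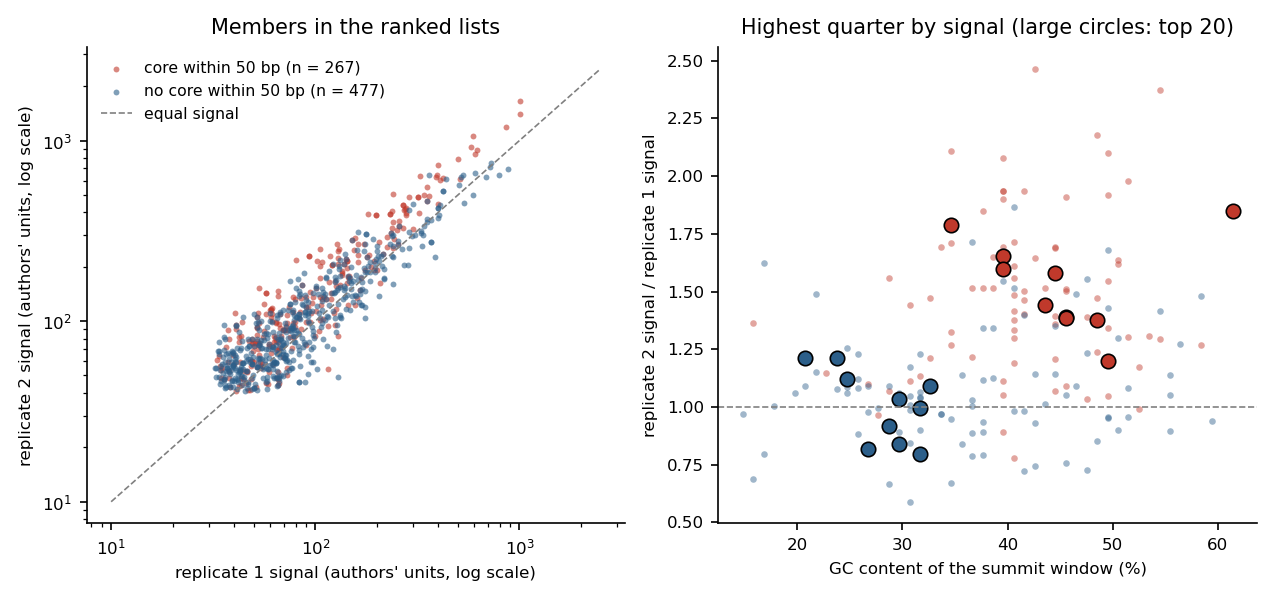
Left, signal of replicate 2 against replicate 1 for the 744 members in both ranked lists (authors' units, log axes), red with and blue without a Onecut core within 50 bp, dashed line at equal signal. Right, the ratio of replicate 2 to replicate 1 against GC content of the window around the summit for the top 25% of members by signal, large circles being the 20 strongest, in which the red and blue circles do not overlap in GC.

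Taken over all GC bands, members with a core also sat closer to a start site. Their summits were a median of 41 bp from the nearer TSS (33 to 50), against 69 bp (61 to 76) for members without a core. Pooled over the bands, one-strand promoters did not show this order, with 136 bp with a core (110 to 157) and 124 bp without (114 to 134). From the lowest to the highest GC band, members' medians with and without a core were 89.5 and 110 bp, 37 and 73.5 bp, 35 and 41 bp, and 32 and 34.5 bp. At one-strand promoters they were 175 and 206 bp, 137 and 180.5 bp, 97 and 83 bp, and 143.5 and 57 bp. The lowest band and the next thus had the members' order there, with overlapping intervals, and the upper bands the reverse. Among head-to-head members, 43 of 257 with a core (16.7%, 12.7 to 21.8) had the summit in the central part of the spacer, at least 33.3% of the spacing from both TSSs, and 135 of 478 without a core (28.2%, 24.4 to 32.4) did. In the top 25% by signal the counts were 10 of 83 with a core and 36 of 100 without. GC content moves with this: in the lowest GC band the shares were 42.1% and 53.3%, and in the highest 18.5% and 11.4%, so the order does not hold in every band.

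The Onecut core was about as common at divergent promoters as at other promoters when the DREF element is counted with it, and rarer in windows without that element. It lay within 50 bp of the summit at 268 of 761 members (35.2%, 31.9 to 38.7), at 37.1% of one-strand summits and at 38.2% of all summits. The difference, members minus one-strand, was −1.92 percentage points (Newcombe interval −5.80 to 2.07). In windows without TATCGATA, which holds the core, the shares were 30.2% of members and 35.4% of one-strand summits, a difference of −5.25 points (−9.10 to −1.23). No interval of this difference was computed by distance to the TSS. Among summits farther than 100 bp from a TSS, TATCGATA was in only 2 of 214 members and 6 of 1242 one-strand summits. The core was in 27.6% and 36.6% of these. Among nearer summits, 209 of 547 members had a core, 53 of them with TATCGATA. At one-strand promoters 369 of 977 nearer summits had a core, 53 of them with TATCGATA. Of the windows with TATCGATA, 53 of 55 at members and 53 of 59 at one-strand summits lay within 100 bp of a TSS. ATCGAT in windows without CGATA was in 5.39% of members and 9.05% of one-strand summits. ATCGAT was in 175 members (23.0%, with 22.5% of one-strand and 21.2% of all summits), and ATTGAT in 117 (15.4%, with 16.5% and 19.1%). Windows of the same length that end at each of the 19607 annotated TSSs held a core in 18.5%. Core matches were concentrated at the summits, with 211 within 25 bp and 228 at 150 to 250 bp, a ratio per bp of 3.70. The same ratio was 2.70 for CGATA, 2.47 for TATCGATA (29 and 47 matches) and 1.63 for Motif 1 (11 and 27). The interval of the difference fell below 0 with a window of 25 bp to each side (−4.57, −7.97 to −0.978) and in the stronger 50% of peaks (−5.61, −11.0 to −0.0849), and the difference was 3.34 with one of 100 bp to each side. The members' core share itself was 22.6% with the narrower window and 48.2% with the wider.

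**Figure D4:**
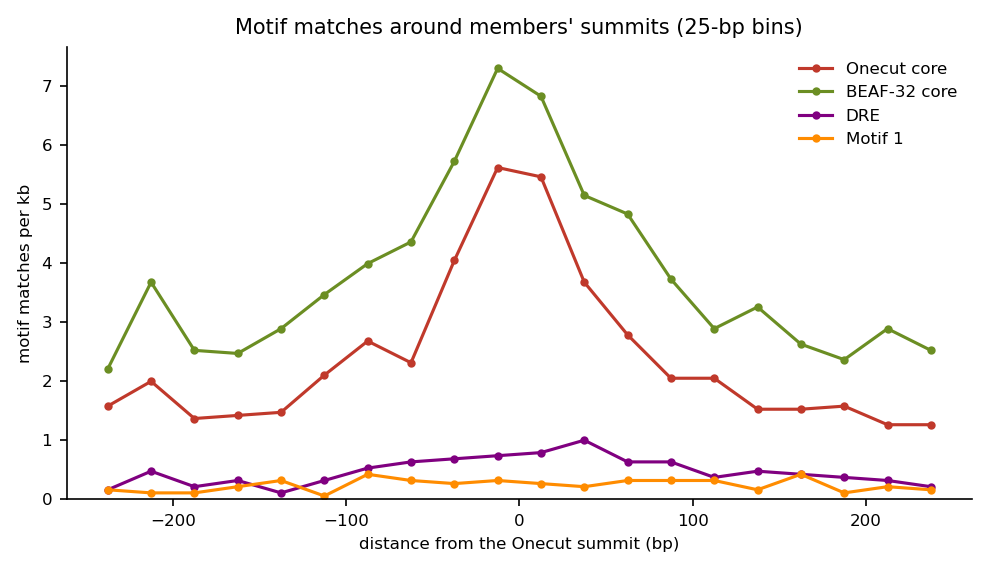
Matches per kb of the Onecut core, the BEAF-32 core, the DREF element (DRE) and Motif 1 in 25-bp bins by distance from the members' summits. The Onecut core and the BEAF-32 core peak at the summit, and DRE and Motif 1 have fewer matches than either in every bin.

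Core content followed signal. In the lowest 25% of members by signal 50 of 191 had a core (26.2%, 20.5 to 32.8), and in the highest 25% 89 of 191 did (46.6%, 39.7 to 53.7). At one-strand promoters the shares were 23.2% in the lowest and 57.3% in the highest 25%. Median signal was 192 units at members with a core and 151 at members without. The core share was lower in members than in one-strand summits among summits farther than 100 bp from a TSS, at 27.6% against 36.6% (difference −9.06, −15.2 to −2.20). Within 100 bp it was 38.2% and 37.8%.

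Of the elements of housekeeping promoters, the BEAF-32 core and the DREF element that contains it were more frequent at divergent promoters. CGATA, the BEAF-32 core, was in 279 members (36.7%), in 26.8% of one-strand summits and in 24.5% of all summits, a difference of 9.85 points between members and one-strand summits (6.01 to 13.8). The list of replicate 1 alone gave 32.9% and 26.0%, and that of replicate 2 gave 37.0% and 27.0%. At least 2 copies were in 16.7% of members and 9.10% of one-strand summits, but TATCGATA reads the same on both strands and so counts as 2 copies by itself, as at 55 of the members. In windows without TATCGATA, at least 2 copies were in 10.2% of members and 6.62% of one-strand summits (difference 3.58, 1.26 to 6.22). TATCGATA, the DREF element, was in 55 members (7.23%), in 2.66% of one-strand summits and in 1.79% of all summits, a difference of 4.57 points (2.77 to 6.71). It was 5.77% and 2.96% in replicate 1, and 7.77% and 2.53% in replicate 2. Motif 1, GGTCACACT, was in 19 members (2.50%), in 1.76% of one-strand summits and in 0.904% of all summits, and its difference of 0.74 points (−0.36 to 2.19) spans 0. In the lists of single replicates the interval did not reach 0, with 1.49 points (0.241 to 3.18) in replicate 1 and 1.35 points (0.170 to 2.94) in replicate 2. The E box CAGCTG was in 8.54% of members, 7.17% of one-strand summits and 5.60% of all.

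The GAGA element, a CA repeat and the initiator words were rarer at members, and TATAAA was more frequent. GAGAG, the GAGA factor element, was in 72 members (9.46%), in 17.1% of one-strand summits and in 15.3% of all summits, a difference of −7.66 points (−10.1 to −4.92). The values were 9.62% and 16.0% in replicate 1, and 9.64% and 19.0% in replicate 2. The repeat CACACAC was in 15 members (1.97%), 6.40% of one-strand summits and 5.47% of all, a difference of −4.43 points (−5.77 to −2.86). The initiator words TCAGTC and TCAGTT were in 7.36%, 10.05% and 9.00%, a difference of −2.69 (−4.80 to −0.301) that spans 0 in replicate 1 alone. TATAAA was in 15.4% of members, 12.1% of one-strand summits and 13.9% of all, a difference of 3.30 (0.518 to 6.32). All words were searched on both strands. TATAAA holds no G or C, GAGAG and CACACAC are mostly G or C, and the members' windows are lower in GC. The part of GC content in these differences was not tested.

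**Figure D5:**
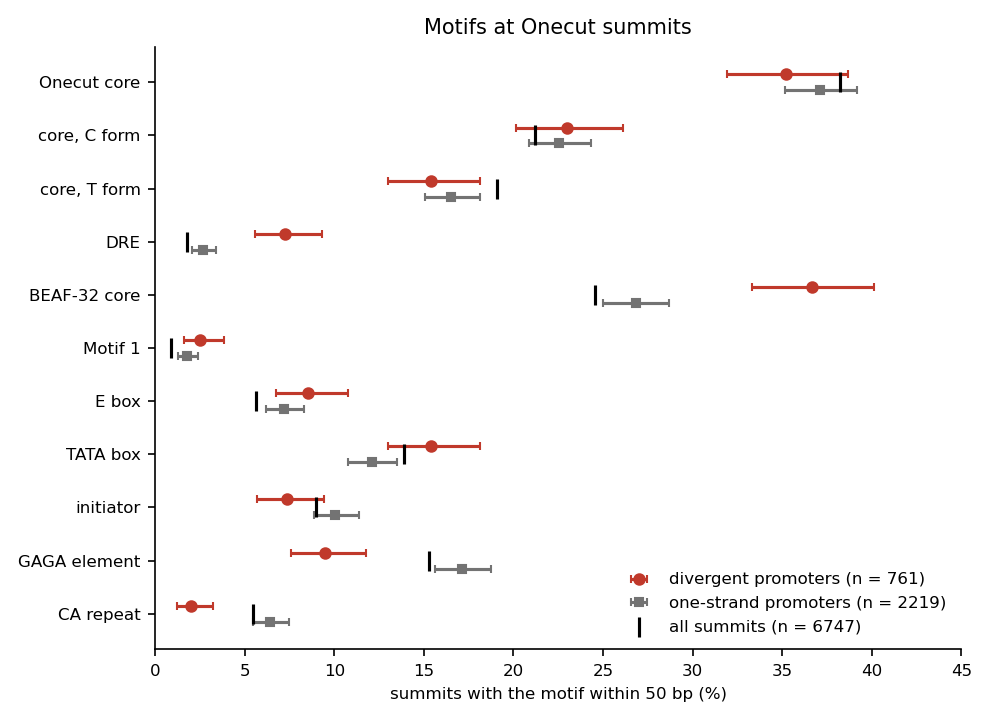
Share of summits with each element within 50 bp, for divergent promoters (red circles) and one-strand promoters (grey squares) with 95% Wilson intervals, and for all summits (black ticks). The BEAF-32 core and DRE are higher at divergent promoters, and the GAGA element and CA repeat are lower.

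Distance to the TSS moves with these shares, since 71.9% of members and 44.0% of one-strand summits lay within 100 bp of a TSS. Among those nearer summits CGATA was in 43.7% of members and 36.1% of one-strand summits (difference 7.56, 2.45 to 12.7), TATCGATA in 9.69% and 5.42% (4.26, 1.54 to 7.30), and GAGAG in 8.96% and 16.1% (−7.11, −10.3 to −3.66). Among summits farther away CGATA was in 18.7% and 19.5%, and TATCGATA in 0.935% and 0.483%. TATAAA was in 11.9% and 9.52% of the nearer summits (2.36, −0.80 to 5.79) and in 24.3% and 14.1% of the farther ones (10.2, 4.56 to 16.6). The initiator words were in 41 of 547 members and 139 of 977 one-strand summits among the nearer ones (−6.73, −9.75 to −3.49) and in 7.01% and 6.76% of the farther ones (0.246, −2.87 to 4.66). All 19 members with Motif 1 were within 100 bp of a TSS, and in this class its shares were 3.47% and 3.68%. Windows ending at all annotated TSSs held CGATA in 26.1%, TATCGATA in 5.19%, Motif 1 in 1.95% and GAGAG in 15.3%. In windows centred midway between the TSSs of head-to-head pairs, CGATA was in 26.1% of pairs with a summit and 22.6% of pairs without one, TATCGATA in 5.39% and 4.68%, and the core in 22.1% and 19.4%.

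The core and CGATA often met in one window, as ATCGATA holds both. Of the members 166 had both (21.8%), 102 a core only (13.4%), 113 CGATA only (14.8%) and 380 (49.9%) neither. Among one-strand summits the shares were 17.4% with both, 19.7% with a core only, 9.42% with CGATA only and 53.4% with neither. The median signal of members was 154 units with TATCGATA and 163 without, and 156 with CGATA and 167 without. It was 199.8 units at the 19 members with Motif 1 and 162 at those without. CG1951/eIF4E6, the strongest member with TATCGATA (1510 units, 579 and 926 in replicates 1 and 2), includes a translation initiation factor gene and had 4 CGATA in its window.

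Cytoplasmic ribosomal protein genes were the list most often found at members. Of the 93 genes, 56 were in head-to-head pairs and 32 of these (57.1%) were at a member summit, against the 27.6% of all paired genes. The high share was not limited to divergent promoters: a promoter summit of any kind lay at 73 of the 93 genes, beside 23.4% of all genes. The 35 member summits of this list had a median of 337 units, and 15 had a core. Nup37/RpS27 (800 units, 405 in replicate 1 and 387 in replicate 2) pairs a nuclear pore gene with a ribosomal protein gene, and its summit lay 5 bp inside RpS27. RpL7/Ripalpha (753 units, 301 and 445) pairs a ribosomal protein gene with that of an RPA-interacting protein. Mitochondrial ribosomal protein genes were near the base rate, at 17 of 59 paired genes (28.8%), although CenG1A/mRpS23 (1484 units, 724 and 748 in replicates 1 and 2) and mRpS10/Art3 were among the strongest.

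Among genes of chromatin and insulator factors, 14 of 21 were in head-to-head pairs, beside 5052 of all 13945 genes. A promoter summit of any kind lay at 11 of the 21, beside 23.4% of all genes. Of the 14 paired genes, 7 were at a member, against 27.6% of all paired genes. An overlapping pair with pita brought the genes at a member to 8. The 8 genes were Chro, brm, Dref, Cp190, E(z), Su(z)12, M1BP and pita, and the median of their summits was 393 units. They include Dref and M1BP, which encode the factors that bind the DREF element and Motif 1, and Cp190, which encodes a cofactor of insulator proteins. RpL13/Dref had 536 units (255 in replicate 1 and 267 in replicate 2) and a core. Arl1/brm, which starts the gene of the Brahma remodeler ATPase, had 641 units (328 and 317), no core, and a GC content of 14.9%, as low as that of any member. CG8202/M1BP had 200.6 units (92.3 and 100).

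The other lists had between 19.2% and 44.4% of their paired genes at a member. Aminoacyl-tRNA synthetases had 10 of 23 paired genes at a member, led by ThrRS/Patsas (764 units, 241 and 507 in replicates 1 and 2). The respiratory chain and ATP synthase had 20 of 45 paired genes, led by SCAR/ATPsynG at 645 units. Vesicle transport had 20 of 54, nuclear pore 6 of 18, proteasome 8 of 26, RNA polymerase and general factors 17 of 56, DNA replication 6 of 21, spliceosome 8 of 29, mitochondrial import 2 of 5, and translation factors 5 of 26. Mcm2/RPA1, which joins a replicative helicase subunit and a single-strand DNA binding protein, was the only member with genes of one list on both sides, at 130 units. Of the neuronal and synaptic genes 4 of 24 were in such pairs, beside 5052 of all 13945 genes, and Appl was the only one of the 4 at a member. A promoter summit of any kind lay at 13 of the 24, beside 23.4% of all genes. The lists were matched by symbol and were chosen with earlier results of these data known, so these counts are a description.

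A pair of separate summits was called at 56 of the 705 gene pairs, and 649 had one. These summits were a median of 208.5 bp apart, with quartiles of 202 and 234.5 bp, and never closer than 199 bp. Why the distances gather near this lower limit was not tested. The farthest apart were 2089 bp, at Vti1b/Vha100-2, where the summits reach different start sites of the same genes. The stronger had a median of 2.03 times the signal of the weaker. A core was at both summits of 10 pairs, at one summit of 23 and at neither of 23. IntS12/Lerp, which pairs an Integrator subunit with a lysosomal receptor gene, had summits of 953 and 165 units, 199 bp apart and both without a core. Pka-R1/CG3618, with a protein kinase A regulatory subunit, had summits of 803 and 376 units, both with a core. The widest ratio was 17.0, at Tmem18/DUBAI on 2R, with 648 and 38.1 units.

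The members at the ends of the replicate ratio had signals of 109 to 218 units. The highest ratios of replicate 2 to replicate 1 were 2.87 at adp/CG5742, 2.76 at CG12744/peo and 2.72 at the weaker of 2 summits of CG11975/E(var)3-9, where the replicate 2 value is that of the peak shared with the stronger summit, and a core was within 50 bp at each. The lowest were 0.376 at Polr2H/CG11247, which includes a subunit shared by the RNA polymerases, 0.468 at the weaker of 2 summits of mts/Rack1, which pairs a protein phosphatase 2A catalytic subunit with a ribosome-bound scaffold protein, and 0.519 at ND-42/Cchl. The weakest members were CG42542/Kpc1 at 18.4 units, TfIIA-L/pll at 25.01 and Rbcn-3B/Edem1 at 25.5. The values of TfIIA-L/pll and Rbcn-3B/Edem1 are each from the weaker of 2 summits, the stronger having 198 and 75.7 units. At the limit of the rule, 6 members had the farther TSS at 490 to 500 bp, the last being CG7484/Ndfip at 500 bp with 623 units. Another 8 summits had it at most 10 bp beyond the limit, the first being CG8478/Snap24, 1 bp outside, with 109 units.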

How the data were processed

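ChIP-seq peak lists were analysed. The authors deposited, per the file headers, lists made from the alignments of both replicates and a control on dm6. No source used here names the aligner or the peak caller. Each deposited peak has a signal value and a score scaled to at most 1000, both the authors'. The main list was the conservative one thresholded by reproducibility between the replicates (6755 peaks, 8 off the arms). The list of each replicate alone held 5133 peaks for replicate 1 and 6023 for replicate 2, and the ranked lists 31012 and 38160. Numbers of reads are unknown.

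The summit is the peak start plus its deposited offset. TSSs came from protein-coding transcripts of 13945 genes in Ensembl release 115, and sequence from the Release 6 genome from RefSeq. A member was assigned the pair of genes with the smallest summed distance. Motifs were exact words on both strands within 50 bp of the summit. Shares have 95% Wilson intervals, differences of shares Newcombe intervals and medians order-statistic intervals. No test was run, since there is 1 group. Work was done in Python 3.11.15 with numpy 2.4.6, pandas 2.3.3, scipy 1.17.1 and matplotlib 3.10.9, and classification and motif search were tested on simulated data. Named members were drawn from the 20 of highest signal, the 3 lowest, the extremes of spacing, of motif classes and of replicate ratio, pairs with 2 summits, the 2 strongest of each gene list and those at the limit of the rule, and not every member so selected is named. The other members of the chromatin list, and Appl and RpL7 sequences, were added after their values were seen, as were the split at 100 bp from a TSS and the windows without TATCGATA. Members, lists and rules were chosen with earlier results of these data known. Sequence of arm 2R is not printed. One pair that the rule on spacing selects is not reported here.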

Additional observations from a re-analysis of the deposited data

How the results depend on the processing

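Of 71 recomputed values under 11 settings, 48 stayed within the interval of the main value (1.5 times for the count of members). The median signal ratio did so under every setting tried. The others follow, and the alternatives' construction changes the peaks or bases counted. The stronger 50% of peaks gave 422 members, 41.2% with a core, and 16.3% of head-to-head pairs with a summit. Peaks with a score of 1000 only gave 24.0% of pairs. A promoter window of 250 bp gave 432 members, 18.3% of promoter summits, 79.2% between the TSSs, a median spacing of 211 bp and 22.9% of pairs. A window of 1000 bp gave 1147 members, 31.6%, 39.2% with a core, a core difference of 3.18 points (−0.20 to 6.59), 63.9% between, 332.5 bp and 31.2% of pairs. Canonical transcripts only gave 27.2% of promoter summits. A motif window of 25 bp to each side gave a core share of 22.6% and one of 100 bp 48.2%, with a difference of 3.34 points. With each replicate alone, the share between the TSSs ranged from 69.2 to 75.7% and the share of pairs from 23.4 to 25.3%. The cause of these shifts was not tested. No paired analysis was possible because there is 1 group. Read depth is unknown, and with 2 replicates no spread of a share between embryos' collections can be estimated.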
